A study of Mus musculus with 2 samples.

Results

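Ddit4, Txnip, Arrdc3, Arrdc4 and Sesn1 were followed in single microglia of the mouse hippocampus. These 5 genes were taken by symbol from the 32285 gene IDs counted, and all 5 were found and passed the minimum level for measurement. They were picked as genes of growth and nutrient restraint after Ddit4 and Txnip had been seen at different levels in the 2 libraries, so their levels in the FGR and Control libraries are given as a description. Ddit4, also called REDD1, is a stress-induced protein that acts through the Tsc1-Tsc2 complex to shut down mTORC1, the kinase complex that drives protein synthesis and growth when nutrients are plentiful. Sesn1, a sestrin, also restrains mTORC1, as part of the sensing of amino acids. Txnip, Arrdc3 and Arrdc4 are alpha-arrestins, adaptors that bring membrane proteins to ubiquitin ligases for removal from the surface. Txnip binds thioredoxin and lowers glucose uptake through the transporters Glut1 and Glut4, and Arrdc4 also lowers glucose uptake in cultured cells. Txnip and Arrdc4 are standard targets of MondoA (Mlxip), a transcription factor that responds to glucose phosphates, while Ddit4 and Txnip also respond to glucocorticoids.

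The cells came from hippocampi of mice 3 weeks after birth, in 1 library labelled FGR (fetal growth restriction) and 1 labelled Control. Mice of both groups carried Tmem119-tdTomato+/-, a fluorescent reporter of the microglial gene Tmem119, and Tmem119-positive cells were sorted before droplet-based 3′ single-cell RNA sequencing. The labels give neither the way growth was restricted nor the number, sex or litters of the animals behind a library. With 1 library per group, group, litter, sort and library preparation cannot be told apart, no difference has a replicate check, and every interval below covers counting error only (95%).

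Cells were barcodes with at least 1500 unique molecular identifiers (UMIs, 1 per captured transcript), at least 200 genes and at most 10% mitochondrially coded UMIs, which left 8618 FGR and 10687 Control cells with 45441515 and 53560293 UMIs. All 12 microglial markers were found in more than 20% of the cells of each library. The lowest of them, Sall1, was found in 77.8% of FGR cells and 88.3% of Control cells. The summed level of 43 markers of other cell types was 726 CPM (UMI counts-per-million) in FGR cells and 641 CPM in Control cells, with S100a8 and Ly6c2 at 0 in FGR cells, and Cd163, Lyve1, Cd3e, Nkg7 and Ly6c2 at 0 in Control cells. The libraries shared 31 cell barcodes.

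The promoters of the members are shown because several of these genes are textbook targets of factors with known recognition letters. Each window runs from 250 bases before to 50 after a transcription start site, from RefSeq with GRCm38.p6 coordinates. All 5 members had a window, 8 in all, and the 4 windows with the most to compare are printed. Capitals mark CACGTG (the E-box), GTAAACA (bound by FoxO factors, TGTTTAC on the other strand), CCAAT (bound by NF-Y, ATTGG on the other strand) and the paired CACGAG of Txnip.
Txnip, chr3:96557707-96558006, plus strand: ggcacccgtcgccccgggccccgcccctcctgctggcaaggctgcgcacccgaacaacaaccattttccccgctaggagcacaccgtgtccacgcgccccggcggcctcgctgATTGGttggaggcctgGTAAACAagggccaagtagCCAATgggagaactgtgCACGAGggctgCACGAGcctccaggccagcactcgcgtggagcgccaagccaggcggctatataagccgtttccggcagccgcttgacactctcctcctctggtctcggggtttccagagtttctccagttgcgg
Arrdc4, chr7:68749189-68749488, minus strand: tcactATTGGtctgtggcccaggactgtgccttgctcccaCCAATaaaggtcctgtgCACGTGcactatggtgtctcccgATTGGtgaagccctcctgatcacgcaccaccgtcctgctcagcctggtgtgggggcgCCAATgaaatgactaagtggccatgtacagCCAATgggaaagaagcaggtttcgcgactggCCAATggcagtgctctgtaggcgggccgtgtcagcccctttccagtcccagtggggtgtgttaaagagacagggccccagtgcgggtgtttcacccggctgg
Ddit4, chr10:59951721-59952020, minus strand: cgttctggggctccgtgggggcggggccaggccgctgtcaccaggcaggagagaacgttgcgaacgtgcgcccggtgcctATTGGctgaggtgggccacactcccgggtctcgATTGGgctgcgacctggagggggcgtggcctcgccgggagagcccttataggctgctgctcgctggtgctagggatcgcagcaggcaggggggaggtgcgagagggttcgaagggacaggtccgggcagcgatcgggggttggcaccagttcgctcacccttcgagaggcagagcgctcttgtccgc
Sesn1, chr10:41810324-41810623, plus strand: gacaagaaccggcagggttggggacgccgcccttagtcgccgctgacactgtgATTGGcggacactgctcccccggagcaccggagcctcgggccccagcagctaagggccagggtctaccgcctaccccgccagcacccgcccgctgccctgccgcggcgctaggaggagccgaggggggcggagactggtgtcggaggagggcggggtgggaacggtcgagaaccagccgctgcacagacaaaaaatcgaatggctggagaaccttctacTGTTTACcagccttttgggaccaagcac

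The Txnip window holds a pair of CACGAG boxes 5 bases apart (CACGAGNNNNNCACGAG), from base -85 to base -69 relative to the start. That arrangement stood in 1 of 32817 RefSeq windows (0.00305%), which was Txnip itself, and it was searched after the sequence had been read. Upstream of it lie GTAAACA, from base -121 to base -115, and CCAAT on either strand. Arrdc4 instead has a perfect CACGTG from base -193 to base -188, letters found in 7.15% of all windows, and 6 copies of CCAAT or ATTGG. Another form of carbohydrate response element, CACGTG followed after 5 bases by a box with at least 4 of its 6 letters, was also searched. It stood in 0.616% of windows and in none of the members'. Because it asks for a perfect CACGTG first, the CACGAG pair of Txnip could not match it. GTAAACA or its reverse was in 3.65% of all windows, and among members in Txnip and in the Sesn1 window, where TGTTTAC lies from base 22 to base 28 after the start. CCAAT was in a window of all 5 members and in 37.4% of all windows.

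For Ddit4, the searched letters were ATTGG at 2 places and a pair of other matches. The pair was ACGTG, from base -187 to base -183, and GCGTG, from base -115 to base -111, letters bound by hypoxia-inducible factors, in 19.6% and 32.4% of all windows. ACGTG also stood in windows of Arrdc3 and Arrdc4, in Arrdc4 inside its CACGTG, and GCGTG in a window of every member. TGACG, part of the cyclic AMP response element, stood in windows of Arrdc3 and Sesn1 and in 20.8% of all. TGTTCT, a part of the glucocorticoid response element, stood in 18.97% of all windows and TATAAA in 13.6%, and no member's window held either. Both strands were searched for all of these letters. A match is a stretch of letters and not a measured site, and factors also bind outside such windows.

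Ddit4 stood furthest apart of the members. Its gene (ENSMUSG00000020108) lies on the minus strand of chromosome 10 from 59949669 to 59951834 in GRCm38. It gave 13793 UMIs in FGR cells and 2815 UMIs in Control cells, which is 303.5 CPM (298 to 309) in FGR cells and 52.6 CPM (50.6 to 54.5) in Control cells. The ratio of FGR to Control level was 5.78 (5.55 to 6.02), or 2.53 on the log2 scale, rank 16 from the top of 8328 genes that reached 10 CPM in at least 1 library. A gene was called higher or lower when it reached that level and the whole interval of its ratio lay beyond 1.5-fold. By this rule 2.17% of the 8328 genes were higher and 1.06% lower in FGR cells, 3.23% in either direction. Ddit4, Txnip and Arrdc3 were called higher, and nothing is read from that count since the members were picked on this contrast.

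Txnip was the most counted member. The gene (ENSMUSG00000038393; plus strand of chromosome 3, 96557957 to 96561883) gave 1745 CPM (1733 to 1757) in FGR cells, against 949 CPM (941 to 957) in Control cells, a ratio of 1.84 (1.82 to 1.86), rank 131. It overlaps Gm15441 on the opposite strand, which was below the minimum level in both libraries, with 2.905 CPM in FGR cells and 1.25 CPM in Control cells.

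Arrdc3, an adaptor known for the turnover of beta-adrenergic receptors, had 122 CPM (119 to 126) in FGR cells and 65.2 CPM (63.0 to 67.4) in Control cells, a ratio of 1.88 (1.798 to 1.958), rank 124. Its gene (ENSMUSG00000074794) lies on the plus strand of chromosome 13 from 80883384 to 80896042. Antisense 1700023H06Rik overlaps it and had 22.3 CPM in FGR cells and 6.93 CPM in Control cells, a ratio of 3.22 (2.85 to 3.63). Nothing in the labels or headers says whether counting used strand, so reads of this pair may not be told apart.

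The remaining members did not pass the rule. Arrdc4 (ENSMUSG00000042659; minus strand of chromosome 7, 68736995 to 68749241) was the least counted, with 20.1 CPM (18.9 to 21.5) in FGR cells and 18.3 CPM (17.1 to 19.4) in Control cells, a ratio of 1.10 (1.01 to 1.21). The interval of its ratio held 1 under several alternatives. Sesn1 (ENSMUSG00000038332; plus strand of chromosome 10, 41809935 to 41908424) had 114 CPM (111 to 117) in FGR cells and 86.2 CPM (83.7 to 88.7) in Control cells, a ratio of 1.32 (1.27 to 1.37), rank 336. Its interval lay above 1 and below 1.5. The annotation places 9930024M15Rik on the same strand overlapping Sesn1, and any reads of it may count as Sesn1. The ratio intervals of Txnip and Arrdc4, both known MondoA targets, did not overlap. They cover counting error only, and a part of MondoA in either level was not tested.

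Low-count barcodes, mostly free RNA and fragments, showed the same order of the libraries. In barcodes of 10 to 100 UMIs, Ddit4 was at 303 CPM (282 to 324) in FGR and 55.6 CPM (47.4 to 64.9) in Control barcodes, a ratio of 5.44 (4.59 to 6.48). Txnip was at 1588 CPM in FGR and 725 CPM in Control barcodes of this size, a ratio of 2.19 (2.08 to 2.31). Judged by globin transcripts, free RNA made up 2.47% of the UMIs in FGR cells and 3.31% in Control cells. The members are widely expressed, so no cell type in the sort could serve as one that lacks them.

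**Figure D1:**
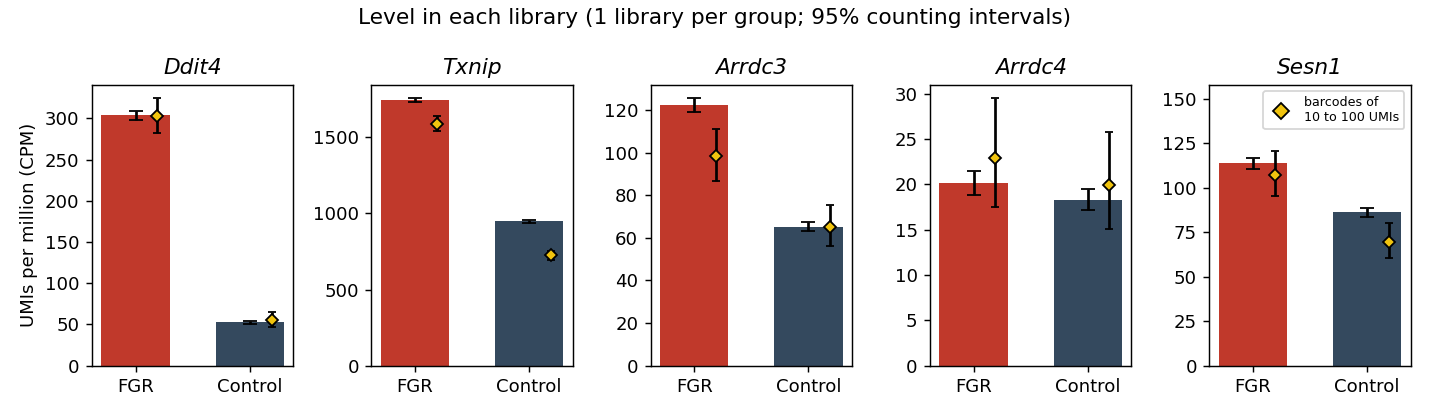
Level of each member in UMI counts-per-million, with FGR left and Control right in each panel, 1 library each. Bars are cells and diamonds are barcodes of 10 to 100 UMIs, with 95% counting intervals. Ddit4 reaches 303.5 CPM in FGR cells and 52.6 CPM in Control cells, while the Arrdc4 bars are 20.1 and 18.3 CPM.

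The higher Ddit4 level was spread over many cells. A Ddit4 UMI was found in 65.6% of FGR cells and 20.8% of Control cells. After each cell was thinned to 2000 UMIs, leaving out 186 FGR and 152 Control cells that were shallower, the shares were 41.4% (40.3 to 42.4%) in FGR cells and 9.81% (9.24 to 10.4%) in Control cells. At 3 or more thinned UMIs there were 443 FGR cells (5.25%) and 9 Control cells (0.0854%). The most Ddit4 UMIs in a cell, unthinned, was 18 in FGR cells and 8 in Control cells.

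Txnip was found in nearly every cell of both libraries, with a UMI in 96.5% of FGR cells and 94.2% of Control cells, or 87.7% and 78.6% after thinning. The median cell held 7 Txnip UMIs in FGR cells and 4 in Control cells. The 10% of cells with the most Txnip began at 19 UMIs in FGR cells and 10 in Control cells, also unthinned. Cells with 10 or more thinned Txnip UMIs numbered 459 among FGR cells (5.44%) and 50 among Control cells (0.475%). The 10% of cells with the most Txnip nevertheless held like shares of its thinned UMIs, 29.6% in FGR cells and 30.5% in Control cells.

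For Arrdc3 the thinned shares of cells with a UMI were 20.5% (19.6 to 21.3%) in FGR cells and 11.9% (11.3 to 12.5%) in Control cells. For Sesn1 they were 21.3% (20.4 to 22.2%) in FGR cells and 16.5% (15.8 to 17.3%) in Control cells. Arrdc4 was seen in few cells of either library, 3.84% (3.44 to 4.27%) of FGR cells and 3.31% (2.98 to 3.67%) of Control cells. No cell of either library held more than 2 thinned UMIs of it.

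**Figure D2:**
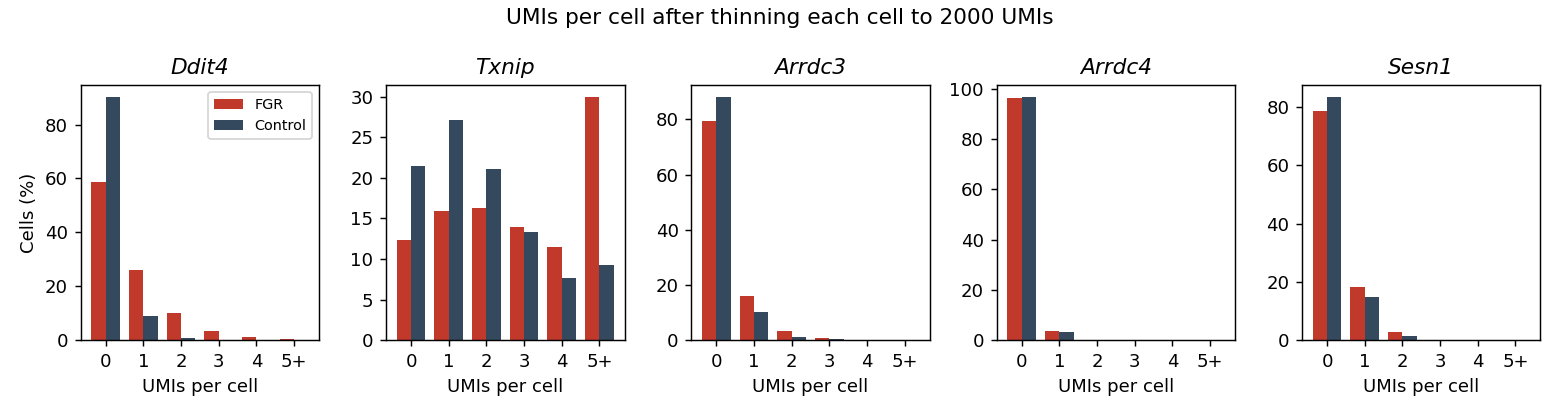
Share of cells (%) by number of UMIs of each member per cell, after thinning each cell to 2000 UMIs, with FGR bars left of Control bars. The FGR bars for Ddit4 extend past 3 UMIs (5.25% of cells at 3 or more) where the Control bars end (0.0854%), and both Arrdc4 distributions lie at 0 in over 96% of cells.

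Txnip, Ddit4 and Arrdc3 varied more between cells than most genes of like level, while Sesn1 did not. The measure was the squared coefficient of variation of thinned counts after subtracting counting noise, set beside genes whose mean lay within 0.5 log2 units. For Arrdc3 it was 1.10 in FGR cells and 1.61 in Control cells, above 97.2% of 1003 like genes in FGR cells and 98.0% of 1751 in Control cells. Ddit4, at 0.721 in FGR cells and 0.830 in Control cells, was above 92.7% of 315 and 91.2% of 1961 such genes. Txnip, at 0.509 in FGR cells and 0.380 in Control cells, was above 90.5% of 63 and 90.6% of 117. Sesn1 lay in the middle, at 0.212 in FGR cells and 0.257 in Control cells, above 41.1% and 51.5% of like genes. These ranks describe each library by itself.

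Co-variation among the members was weak. Over thinned cells (8432 FGR, 10535 Control, sharing library, depth and free RNA), Pearson's r between log counts of Ddit4 and Txnip was 0.099 in FGR cells and 0.017 in Control cells, the highest of the 10 pairs in the FGR library. In the FGR library the Ddit4 level was 222 CPM (202 to 243) in cells with no thinned Txnip UMI, 284 CPM with 1, 306 CPM with 2, 349 CPM with 3 to 4, 372 CPM with 5 to 7 and 383 CPM (355 to 412) with 8 or more. In the Control library the same classes had 49.6 CPM (43.3 to 56.6), 52.5, 53.4, 59.7, 53.1 and 74.9 CPM (48.0 to 111). The Ddit4 level therefore climbed over the Txnip classes of FGR cells, while the intervals of the lowest and highest Control class overlap. That highest Control class held only 24 Ddit4 UMIs in 161 cells. Ddit4 had a mean of 0.647 thinned UMIs in FGR cells and 0.108 in Control cells. Fewer counts weaken a correlation, so the values of r for Ddit4 do not compare the libraries. Cells of the FGR library with no Txnip UMI still had more Ddit4 than any Txnip class of the Control library.

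The genes most like each member were those among its 30 highest correlations in both libraries, over 5334 genes. For Txnip there were 18, led by Rhob (r 0.228 in FGR and 0.121 in Control cells), a small GTPase gene induced early after stimulation. Next came Malat1, a nuclear long noncoding RNA (0.161 in FGR, 0.118 in Control), and the microglial receptor gene Cx3cr1 (0.193 in FGR, 0.108 in Control). P2ry12 (0.151 in FGR, 0.081 in Control) and the antiproliferative gene Btg2 (0.147 in FGR, 0.076 in Control) were also among them. P2ry12 is, like Cx3cr1, a gene of the homeostatic microglial state. At the other end were translation genes such as Tpt1 (-0.148 in FGR, -0.103 in Control) and the lipid carrier gene Apoe (-0.143 in FGR, -0.087 in Control), named after their values were seen.

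Ddit4 shared 6 genes between its lists, which were Rhob (0.128 in FGR, 0.056 in Control), the AP-1 gene Jun (0.102 in FGR, 0.053 in Control), the mRNA decay gene Zfp36l1 (0.098 in FGR, 0.044 in Control), Btg2 (0.065 in FGR, 0.042 in Control), the splicing kinase gene Clk1 (0.069 in FGR, 0.039 in Control) and Jund (0.080 in FGR, 0.038 in Control). Tsc22d3, a glucocorticoid-induced gene also called Gilz, correlated with Ddit4 at 0.119 in FGR cells and 0.013 in Control cells. Arrdc3 shared 12 genes, among them Malat1 (0.119 in FGR, 0.081 in Control), Jun, Btg2, the histone gene H3f3b and Rhob. Sesn1 shared Srgap2 (0.044 in FGR, 0.038 in Control) and Mef2a (0.046 in FGR, 0.031 in Control). Across the 5334 genes, the correlations in the FGR and Control library were themselves correlated at 0.756 for Txnip, 0.382 for Arrdc3, 0.346 for Ddit4 and 0.249 for Sesn1, and genes are not independent replicates. All of these coefficients are small and rank genes rather than show a link. Ddit4, Txnip, Arrdc3 and Sesn1 also each had fewer thinned UMIs per cell in the Control library. For Txnip the mean was 3.61 in FGR cells and 1.98 in Control cells. Fewer counts weaken a correlation, so the coefficients of these members, those of Txnip included, do not compare the libraries. Arrdc4 was below the mean level set for this step.

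**Figure D3:**
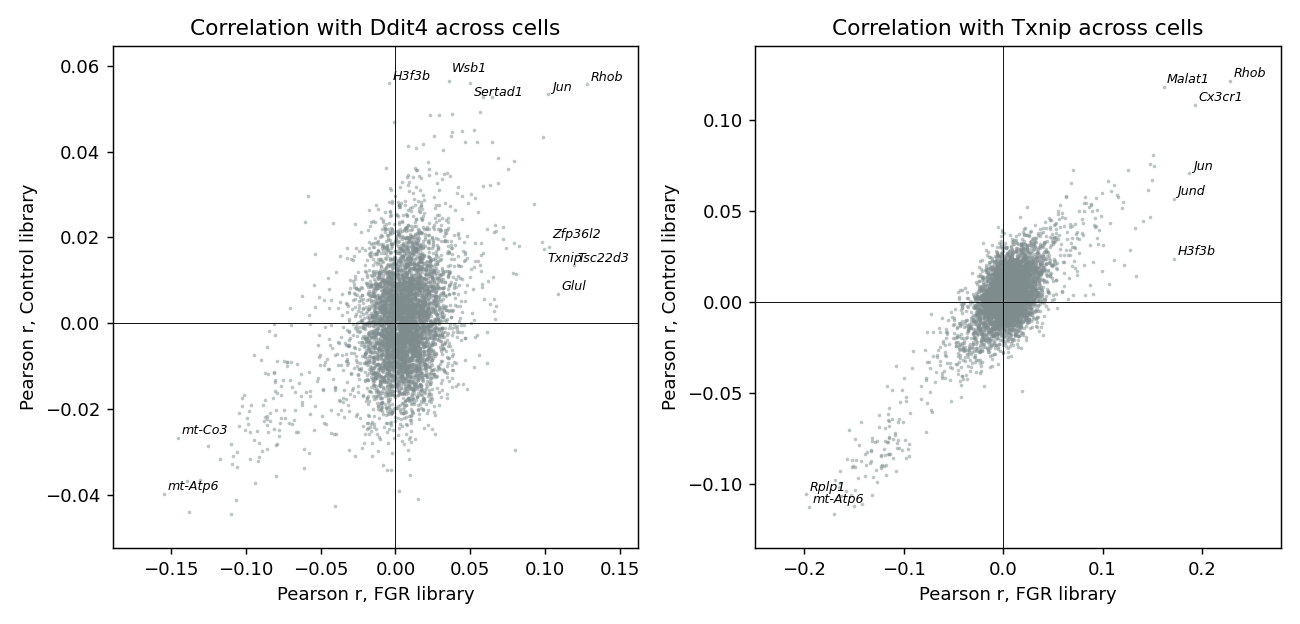
Pearson correlation of each of 5334 genes with Ddit4 (left) and Txnip (right) across cells, FGR library on the horizontal and Control library on the vertical axis, each point a gene. The Txnip cloud is stretched along the diagonal (r 0.756 across genes) with Rhob at its upper end, and the Ddit4 cloud is not as stretched (0.346). Ddit4 has fewer UMIs per cell than Txnip, which by itself weakens correlations.

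Levels were then read within strata of cells, since other programs also differed between the libraries. A set of 6 glucocorticoid response genes (Tsc22d3, Fkbp5, Sgk1, Per1, Klf9 and Zbtb16) summed to 2686 CPM in FGR cells and 1185 CPM in Control cells, with medians of 5 and 2 thinned UMIs per cell. A set of 22 immediate early genes, which respond within minutes to stimuli including tissue dissociation, summed to 37656 CPM in FGR cells and 28971 CPM in Control cells. Their part in the member levels was not tested. The glucocorticoid classes below are cut on few UMIs per cell. Cells of equal count may therefore still differ in that program between the libraries, and the classes are not an adjustment for it.

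Ddit4 was higher in FGR cells at every level of the glucocorticoid set. In cells with 0 UMIs of the set (204 FGR and 1548 Control cells), it was at 199 CPM (173 to 227) in FGR cells and 48.4 CPM (43.7 to 53.5) in Control cells, a ratio of 4.11 (3.46 to 4.86). In cells with 8 or more (2093 FGR and 270 Control cells), it was at 356 CPM (345 to 368) in FGR cells and 57.4 CPM (44.9 to 72.3) in Control cells, a ratio of 6.21 (4.91 to 7.95). The level in FGR cells climbed through the classes between, at 227, 255, 286 and 322 CPM with 1, 2, 3 to 4 and 5 to 7 UMIs. In Control cells those classes lay between 51.4 and 60.7 CPM. Within a library, cells with 3 or more UMIs over those with 0 gave 1.61 (1.40 to 1.85) in FGR cells. In Control cells this was 1.15 (1.02 to 1.29), smaller but with an interval above 1.

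Txnip followed the set in both libraries. From 0 to 8 or more UMIs of the set, its level was 1289.7, 1388, 1557, 1647, 1802 and 2036 CPM in FGR cells, and 881, 917, 935, 968, 1059 and 1115 CPM in Control cells. The ratio was 1.46 (1.38 to 1.55) in the class with none and 1.83 (1.73 to 1.93) in the class with most. Arrdc3 had ratios of FGR to Control between 1.45 and 1.91 in these classes with no order. Within a library, its level with 3 or more UMIs over that with 0 was 1.16 (0.965 to 1.40) in FGR cells. In Control cells this was 1.23 (1.11 to 1.37), an interval above 1. For Sesn1 the ratio of FGR to Control was 0.976 (0.778 to 1.21) in cells with none of the set, and between 1.13 and 1.41 in the others.

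**Figure D4:**
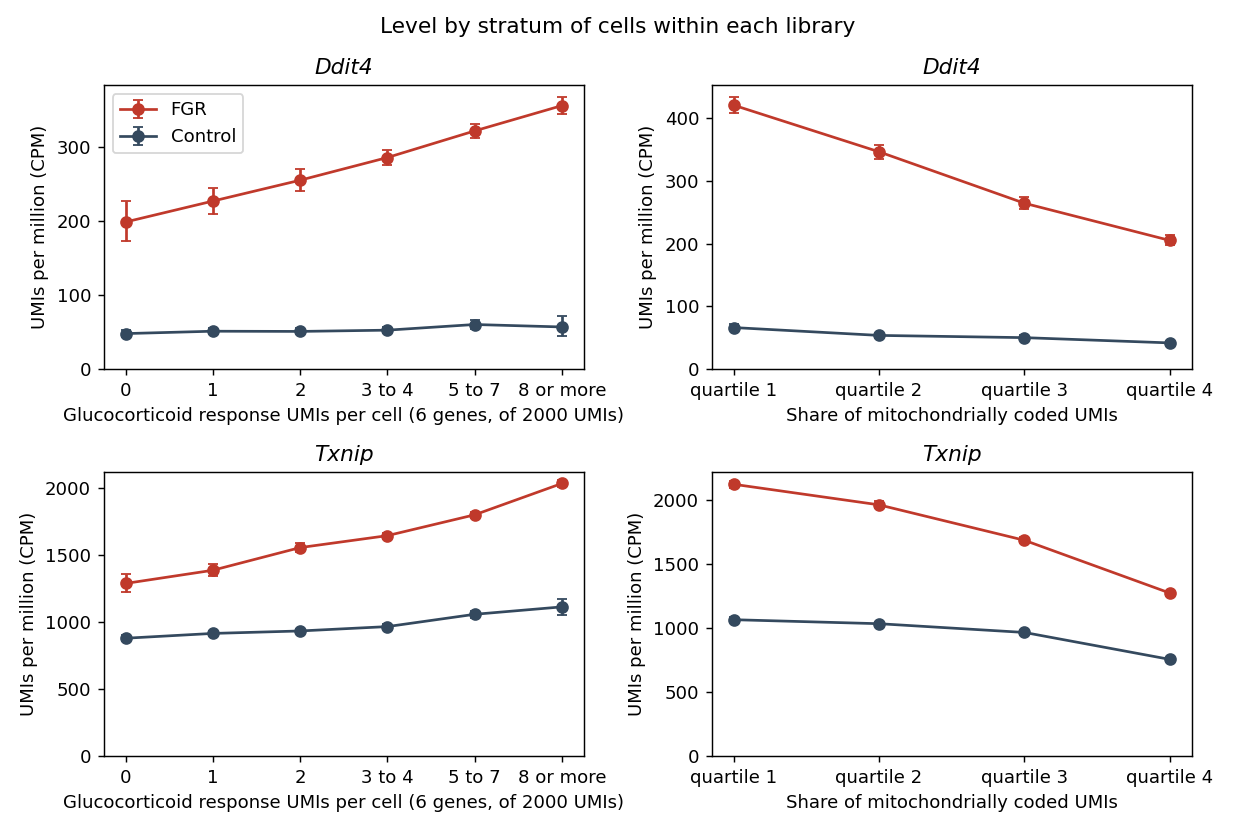
Level (UMI counts-per-million, 95% counting intervals) of Ddit4 (top) and Txnip (bottom) in classes of cells by UMIs of 6 glucocorticoid response genes (left) and by quartile of mitochondrial share (right), FGR and Control library. FGR lies above Control in every class, with Ddit4 from 199 to 356 CPM over the glucocorticoid classes of FGR cells and from 48.4 to 60.7 CPM over those of Control cells.

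By quartile of immediate early UMIs, the ratio of FGR to Control was 6.75, 5.74, 4.65 and 5.24 for Ddit4 from the lowest to the highest quartile, and 1.51, 1.66, 1.78 and 2.07 for Txnip. Within a library, the highest quartile over the lowest gave 1.28 (1.21 to 1.34) in FGR cells and 1.64 (1.47 to 1.84) in Control cells for Ddit4. For Txnip it gave 1.55 (1.51 to 1.58) in FGR cells and 1.12 (1.09 to 1.16) in Control cells. Sesn1 had no such slope, with 0.996 (0.919 to 1.08) in FGR cells and 0.960 (0.876 to 1.05) in Control cells.

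The members were lower in cells with a higher mitochondrial share. For Ddit4 the quartiles, from low to high share, were at 419.7, 346, 264 and 205 CPM in FGR cells and 66.6, 54.1, 50.6 and 42.2 CPM in Control cells. The highest over the lowest quartile was 0.488 (0.465 to 0.513) in FGR cells and 0.634 (0.569 to 0.706) in Control cells for Ddit4, and 0.600 (0.588 to 0.612) in FGR cells and 0.709 (0.691 to 0.728) in Control cells for Txnip. Arrdc3 gave 0.611 in FGR cells and 0.638 in Control cells, and Sesn1 0.671 and 0.784. For Arrdc4 the value was 0.755 (0.623 to 0.914) in FGR cells and 0.880 (0.727 to 1.07) in Control cells, the Control interval holding 1. By depth, the quartile of cells with the most UMIs over that with the fewest gave 0.653 in FGR cells and 0.766 in Control cells for Ddit4, and 0.786 in FGR cells and 0.755 in Control cells for Txnip. Arrdc3 gave 0.807 in FGR cells and 0.815 in Control cells, and Sesn1 0.743 and 0.786. Arrdc4 gave 0.945 (0.770 to 1.17) in FGR cells and 1.07 (0.884 to 1.31) in Control cells, both intervals holding 1. A share of UMIs falls for every gene where others take more, and this was not separated from a lower level per cell.

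Microglia carrying Lgals3 and Lpl program transcripts, which mark activated, lipid-handling cells, had less Ddit4 and Txnip than the other cells of their library. With 3 or more thinned UMIs of that list (100 FGR and 78 Control cells), Ddit4 was at 129 CPM in the FGR library against 307 CPM in its other cells, a ratio of 0.421 (0.339 to 0.517). In the Control library it was at 16.1 CPM against 52.96 CPM in its other cells, a ratio of 0.304 (0.131 to 0.601). Txnip in the same cells was at 883 CPM against 1763 CPM in the FGR library (0.501, 0.462 to 0.542), and at 556 CPM against 953 CPM in the Control library (0.584, 0.517 to 0.657). Both genes were thus lower in these cells in each library by itself, and Sesn1 likewise, with 0.683 (0.514 to 0.890) in FGR cells and 0.630 (0.415 to 0.918) in Control cells. Arrdc3 was at 0.657 (0.497 to 0.852) in FGR cells and 0.802 (0.523 to 1.18) in Control cells, and Arrdc4 at 0.770 (0.383 to 1.39) and 0.991 (0.452 to 1.89), 3 of these 4 intervals holding 1. Near this limit, at 2 to 3 UMIs and so on both sides of it, lay 145 FGR and 195 Control cells, and the class is a range of a score and not a cell type.

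Txnip was also lower in cells of other programs, in part of the cases, and differences between the libraries in this were not tested. In cells with interferon-induced transcripts (55 FGR and 57 Control cells), Txnip over other cells was 0.621 (0.558 to 0.688) in FGR cells and 0.921 (0.810 to 1.04) in Control cells. Ddit4 there was at 0.605 (0.463 to 0.778) in FGR cells and 0.658 (0.315 to 1.21) in Control cells. In cells with proliferation transcripts (18 FGR and 25 Control cells), Txnip was low in both, 0.650 (0.555 to 0.756) in FGR cells and 0.538 (0.434 to 0.660) in Control cells. Ddit4 in those dividing cells was 0.470 (0.291 to 0.718) in FGR cells and 1.06 (0.506 to 1.95) in Control cells, the Control interval holding 1. Cells with myelin transcripts, 49 FGR and 335 Control cells, had Txnip at 0.768 (0.693 to 0.849) of other cells in FGR cells and 0.944 (0.895 to 0.996) in Control cells. Ddit4 in these cells was at 0.799 (0.621 to 1.01) in FGR cells and, the other way, at 1.24 (1.005 to 1.51) in Control cells. Near these limits, at 2 to 3 UMIs, were 68 FGR and 83 Control cells for interferon, 13 and 16 for proliferation, and 181 and 474 for myelin. In every class the medians of the other classes' lists were 0 UMIs per cell.

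The pathways around the members were read by counts, beside the shares of all 8328 genes called higher (2.17%) and lower (1.06%). Over the 11 lists, 102 genes that are not members were measured, of which 9 (8.82%) were higher and 3 (2.94%) lower in FGR cells. Of the 9, 6 are in the glucocorticoid list. The lists were chosen with results known, so these shares are a description. Of 15 genes known to restrain mTORC1, 11 were measured, and Ddit4 was higher and none lower. Their median log2 ratio was -0.00, and -0.09 for the 9 that are not members, beside -0.07 for all 8328 genes. Sesn2, the stress-induced sestrin, was at 11.9 CPM in FGR cells and 13.8 CPM in Control cells, a ratio of 0.859 (0.767 to 0.961), and Sesn3 at 15.3 CPM in FGR cells and 13.5 CPM in Control cells, a ratio of 1.13 (1.02 to 1.26). Castor2 and Akt1s1 had ratios of 0.866 and 0.880. Tsc1, at 0.901 (0.832 to 0.976), and Tsc2, at 1.07 (0.961 to 1.19), encode the complex through which Ddit4 acts. Ddit4l, the close relative of Ddit4, had 7 UMIs in FGR cells and 8 UMIs in Control cells. Castor1, an arginine sensor gene below the minimum level and named after its values were seen, had 7.28 CPM in FGR cells and 3.96 CPM in Control cells, a ratio of 1.84 (1.54 to 2.20). Tbc1d7, also below the minimum and so named, went the other way, with a ratio of 0.718 (0.567 to 0.905).

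Of 19 mTORC1 subunits and activators, 15 were measured and none passed in either direction, with a median log2 ratio of -0.14. Mtor, the kinase itself, was at 16.5 CPM in FGR cells and 17.8 CPM in Control cells, a ratio of 0.930 (0.844 to 1.02). The folliculin gene Flcn, whose product acts on the Rag GTPases at the lysosome, had 59.1 CPM in FGR cells and 89.1 CPM in Control cells, a ratio of 0.663 (0.632 to 0.695) whose interval did not lie wholly beyond the limit. Rragc (0.820), Fnip1 (0.855) and Lamtor1 (0.871) of the same lysosomal machinery were the next furthest from 1. Mlst8, below the minimum level and named after its values were seen, had a ratio of 0.762 (0.634 to 0.916). Of the 15, 11 had an interval wholly below 1 and 2 wholly above, against 3787 and 1503 of all 8328 genes.

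Among 13 alpha-arrestins and their ubiquitin ligases, 10 were measured, Txnip and Arrdc3 were higher and none was lower. The 7 that are not members had a median log2 ratio of -0.08. Arrdc1 had a ratio of 0.870, the ligase genes Itch and Wwp1 0.871 and 0.878, and the ligase gene Nedd4l 1.18 (1.08 to 1.30). Arrdc2 was just under the minimum, with 9.73 CPM in FGR cells and 6.53 CPM in Control cells, a ratio of 1.49 (1.29 to 1.72). The ligase gene Nedd4, below the minimum too and named after its values were seen, had 5.96 CPM in FGR cells and 2.97 CPM in Control cells, a ratio of 2.01 (1.65 to 2.46).

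None of the 9 measured of 12 genes for glucose uptake and phosphorylation passed. Their median log2 ratio was 0.07. Slc2a5, a fructose transporter gene typical of microglia, was at 211 CPM in FGR cells and 204 CPM in Control cells, a ratio of 1.03 (1.01 to 1.06). Slc2a1, which encodes the Glut1 that Txnip acts on, had a ratio of 1.05 (0.974 to 1.13). Slc2a3 was under the minimum, with 9.20 CPM in FGR cells and 4.89 CPM in Control cells, a ratio of 1.88 (1.61 to 2.20). Pfkfb3, an activator of glycolysis, had the largest ratio of those measured, 1.38 (1.32 to 1.45), while Hk1, Pfkl and Slc2a8 were at 1.21, 1.13 and 0.814.

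Likewise none of 10 measured of 11 genes of the thioredoxin system passed, with a median log2 ratio of 0.00. Txn1, the partner that Txnip binds, was at 71.7 CPM in FGR cells and 63.9 CPM in Control cells, a ratio of 1.12 (1.07 to 1.18). Nlrp3, the inflammasome sensor that Txnip has been reported to bind, had 80.1 CPM in FGR cells and 104 CPM in Control cells, a ratio of 0.768 (0.736 to 0.801). Txnrd2 was at 1.26 and Prdx3 at 0.891.

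Known regulators differed in direction. Of 8 genes of the MondoA and Myc-Max network, Myc was higher, with 54.8 CPM in FGR cells and 32.0 CPM in Control cells, a ratio of 1.71 (1.61 to 1.82). Mlxip, MondoA itself, was at 114 CPM in FGR cells and 78.8 CPM in Control cells, a ratio of 1.443 (1.385 to 1.503) that did not pass, and its partner Mlx was at 0.752 (0.692 to 0.817). Mxd4 was at 0.872. The median log2 ratio of the 8 was -0.15, and none was lower.

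Of 13 targets and factors of the integrated stress response, a known inducer of Ddit4 and Sesn2, 7 were measured, none was higher and Ddit3 was lower. Ddit4 and Sesn2 themselves were not put in this list, so its counts leave them out. Ddit3 had 70.7 CPM in FGR cells and 118 CPM in Control cells, a ratio of 0.598 (0.573 to 0.624). Atf4, the central factor, was at 254 CPM in FGR cells and 373 CPM in Control cells, a ratio of 0.681 (0.665 to 0.697), short of the limit. Ppp1r15a (1.18) and Slc3a2 (1.17) were the other measured genes of this list furthest from 1. Slc7a11, the cystine transporter gene, was just under the minimum level and was named after its values were seen. It had 9.48 CPM in FGR cells and 2.82 CPM in Control cells, a ratio of 3.36 (2.79 to 4.08).

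Among 12 p53 targets, a group that includes Sesn1, 10 were measured, and Trp53inp1 was higher and none lower. Trp53inp1 had 65.8 CPM in FGR cells and 31.5 CPM in Control cells, a ratio of 2.09 (1.97 to 2.22). The other 9, Sesn1 included, did not pass. Bbc3 was at 1.44, Btg2 at 1.33 and Plk2 at 0.656 (0.586 to 0.732). All 14 FoxO factors and targets were measured, of which Txnip and Il7r (1.58, 1.52 to 1.65) were higher, and Ccng2 (0.630, 0.609 to 0.651) and Bcl6 (0.554, 0.504 to 0.607) lower. Klf2, at 1.498 (1.480 to 1.516), did not pass.

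The glucocorticoid list was the one in which most genes passed. Of 12 genes, 11 were measured, 8 were higher and none lower, and Ddit4 and Txnip were among the 8. The other 6 were Dusp1, with 2711 CPM in FGR cells and 579 CPM in Control cells, a ratio of 4.68, Klf9 (3.56), Tsc22d3 (2.95), Sgk1 (2.16), Fkbp5 (2.09) and Per1 (2.05). The median log2 ratio of the 9 that are not members was 1.06. Nr3c1, the gene of the glucocorticoid receptor, was at 221 CPM in FGR cells and 232 CPM in Control cells, a ratio of 0.951 (0.926 to 0.977). This list was known to be high in these libraries before it was set beside the members, and Dusp1 is also an immediate early gene.

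Of 14 hypoxia-induced genes, 10 were measured, Ddit4 was higher and none was lower, with a median log2 ratio of 0.09. The 9 that are not members had a median of 0.08. P4ha1 (1.18), Ldha (1.13), Pgk1 (1.09) and Egln1 (0.934) were the next furthest from 1. Of genes below the minimum level, named after their values were seen, Vegfa had a ratio of 1.97 (1.37 to 2.87) and Egln3 2.55 (1.24 to 5.56). Ankrd37, likewise below it, was at 0.626 (0.517 to 0.757).

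**Figure D5:**
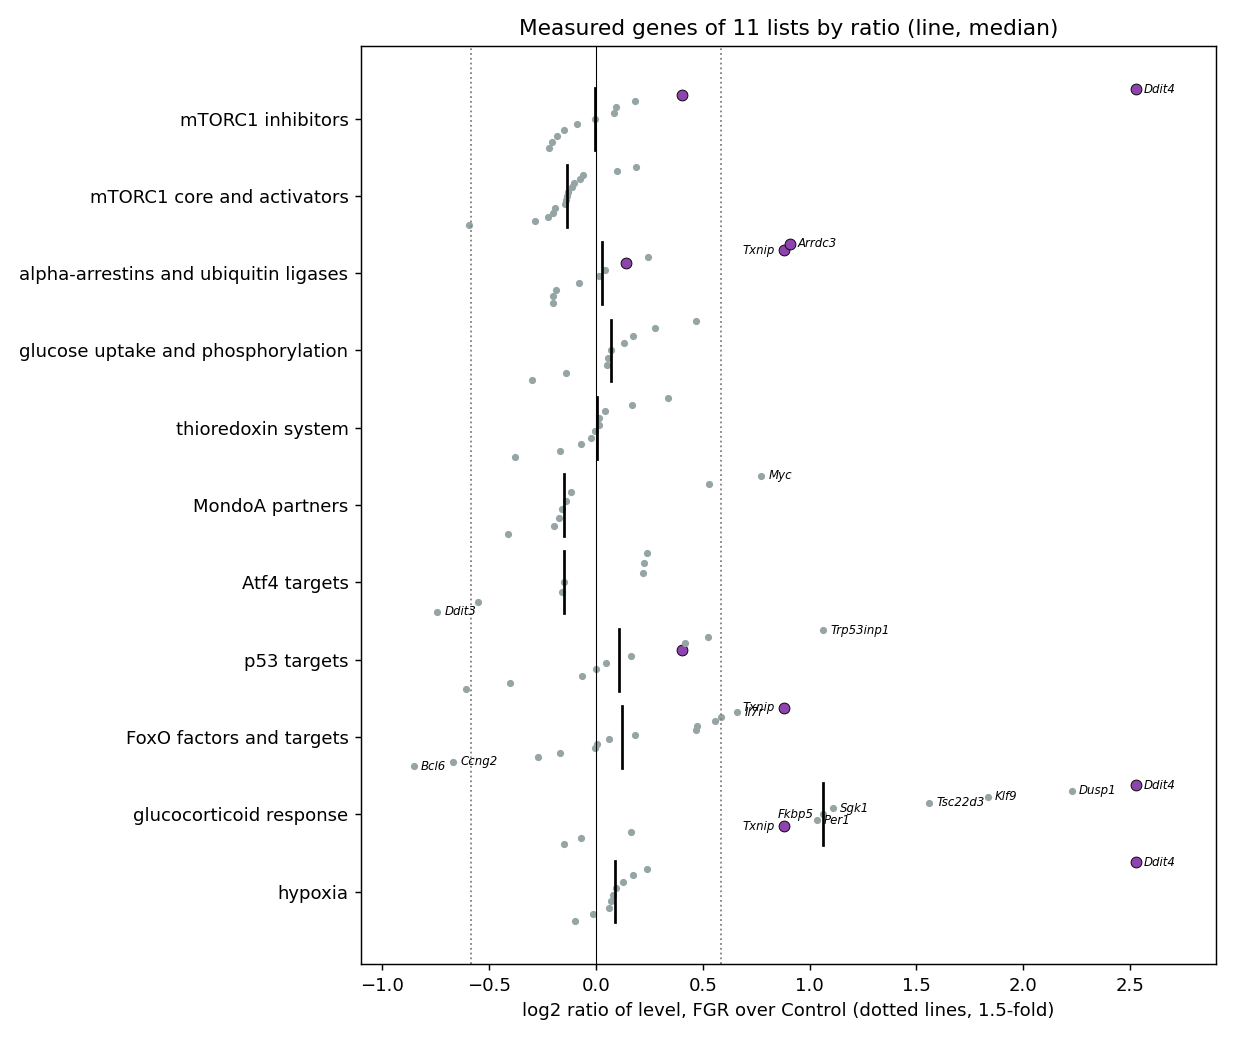
Log2 ratio of FGR to Control level for the measured genes of 11 lists, each point a gene, larger points members, vertical ticks list medians, dotted lines the 1.5-fold limits. With members included, the glucocorticoid list has its median at 1.06, and the other 10 lists have medians from -0.15 to 0.12.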

How the data were processed

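Droplet-based 3′ single-cell RNA was measured in 1 FGR and 1 Control library. The matrices were deposited as raw counts of UMIs for each barcode and gene, with empty barcodes kept. Their headers name Cell Ranger 4. Per the submitters' processing notes, Cell Ranger 3.0 and Seurat 5.0 were used with mm10, so the version differs between the 2 sources. The files held 1935841 FGR and 1961707 Control barcodes, with 50833332 and 58988805 UMIs in all.

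Counts were summed over cells and scaled to counts-per-million (Python 3.11.15, numpy 2.4.6, scipy 1.17.1, pandas 2.3.3). Levels have exact Poisson, ratios exact conditional and shares exact Clopper-Pearson intervals at 95%, for counting error only. No test was possible with 1 library per group. Where a symbol had more than 1 ID, as for 38 symbols, its IDs were added up. Of 32285 IDs, 32158 were in GENCODE M21 (GRCm38), the source of gene coordinates. No doublet caller was run and doublets remain. Median depth was 4919.5 UMIs in FGR cells and 4657 UMIs in Control cells. The calculations were tested on simulated data.

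The members, gene lists and strata were chosen with earlier results of these data known. Besides the members, the rule named for each list the up to 4 measured genes furthest from a ratio of 1, a fixed set in every case and up to 6 correlates of each member. Fkbp5, Per1, Zbtb16, Tpt1, Apoe, Castor1, Tbc1d7, Mlst8, Nedd4, Slc7a11, Vegfa, Egln3, Ankrd37 and the overlapping genes fall outside it and were named after their values were seen. The finer glucocorticoid classes, the mitochondrial quartiles, the genes of like level and the classes by member UMIs were added after seeing the data. Alternatives changed the limits on cells, the removal of the 6% deepest cells or of marker-carrying cells, the scaling, free RNA, the immediate early mix, the limits on genes, the thinning depth and the kind of correlation. Protein sequences were not used here. Some correlates covered by this rule are not reported here.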

Additional observations from a re-analysis of the deposited data

How the results depend on the processing

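Over 12 alternatives each, the FGR over Control ratio ran from 5.464 to 6.07 for Ddit4, 1.766 to 1.933 for Txnip, 1.75 to 1.972 for Arrdc3, 1.047 to 1.16 for Arrdc4 and 1.317 to 1.388 for Sesn1. None of these 60 values turned the direction, and 53 stayed within counting error of the value reported. With the median ratio of all genes (0.9515) set to 1, the ratios were 6.07 for Ddit4, 1.933 for Txnip, 1.972 for Arrdc3 and 1.388 for Sesn1. With both libraries weighted to the same mix of immediate early UMIs they were 5.464 for Ddit4, 1.766 for Txnip and 1.75 for Arrdc3. The interval for Arrdc4 held 1 with a minimum of 3000 UMIs (0.9988 to 1.203), with cells carrying other markers left out (0.910 to 1.24) and with thinned cells (0.9967 to 1.349).

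Genes past the rule numbered 87 higher and 41 lower at a minimum of 50 CPM, 464 and 172 at 1 CPM, and 89 and 24 at a fold limit of 2, against 181 and 88. Ddit4, Txnip and Arrdc3 were higher at both other minimums, and Ddit4 alone at a fold limit of 2. Thinning to other depths moved all 30 shares of cells with a UMI, since it sets the depth. Correlations were recomputed under several alternatives each, giving 48 values. Of these values, 10 moved beyond the error of the reported correlation and 1 was below 0, and the cause was not tested. That error took cells as independent, though they share a library. Leaving out cells with 5 or more UMIs of 1 other cell type, and the same mix of mitochondrial share, were alternatives chosen after seeing the data. No paired analysis was possible because each group is 1 library, and no replicate could be left out. Depth limits Arrdc4 most, with 915 UMIs in FGR cells and 978 UMIs in Control cells.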

Other observations

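The members were also counted in cells carrying markers of other types. In cells with 5 or more UMIs of border macrophage markers (28 FGR and 18 Control cells), Txnip was at 1193 CPM (1055 to 1344) in FGR and 1265 CPM (1074 to 1480.0) in Control cells, a ratio of 0.943 (0.771 to 1.16) whose interval held 1. Ddit4 in the same cells was at 155 CPM (108 to 215) in FGR and 64.9 CPM (28.0 to 128) in Control cells. In cells with such counts of endothelial and mural markers (32 FGR and 11 Control cells), Txnip was at 671 CPM (573 to 781) in FGR and 534 CPM (400.1 to 699) in Control cells, and Ddit4 at 201 CPM (149 to 265) in FGR and 50.4 CPM (16.4 to 118) in Control cells. In cells with such counts of neuronal markers (5 FGR and 9 Control cells), Txnip was at 129 CPM (59.2 to 246) in FGR and 707 CPM (521 to 938) in Control cells, a ratio of 0.183 (0.079 to 0.377), and Ddit4 at 144 CPM (69.0 to 264) in FGR and 14.7 CPM (0.373 to 82.1) in Control cells. In cells with choroid plexus and ependymal markers (6 FGR and 8 Control cells), Ddit4 had no UMI in FGR cells (interval up to 118 CPM) and was at 55.4 CPM (6.71 to 200.2) in Control cells, and Txnip was at 446 CPM (244 to 749) in FGR and 609.6 CPM (382 to 923) in Control cells. With astrocyte markers (466 FGR and 143 Control cells), Txnip was at 1716 CPM in FGR and 902 CPM in Control cells, and with oligodendrocyte markers (87 FGR and 453 Control cells) at 1298 CPM in FGR and 838 CPM in Control cells. These cells may also carry microglial RNA, which was not tested.

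Within FGR cells, Tsc22d3 was at 529 CPM (515 to 543) in cells with no thinned Ddit4 UMI, 616 CPM with 1, 753 CPM with 2 and 829 CPM (770 to 891) with 3 or more. Within Control cells it was at 196 CPM (190 to 202) with none, 207 CPM (187 to 229) with 1 and 247 CPM (178 to 334) with 2. With 3 or more, in 9 Control cells, it was at 223 CPM (60.6 to 570). Txnip over the same classes was at 1719, 1864, 1943 and 2224 CPM in FGR cells, and at 985, 1013, 1125 and 1892 CPM in Control cells, the last from 9 cells (1310 to 2643).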
